A study of Mus musculus with 16 samples.

Results

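Ileal whole wall of diabetic control mice with and without insulin degludec was compared by total RNA sequencing. The comparison takes 10 of the 16 libraries of the series, chosen by genotype and treatment labels: 4 Control-STAM-nonINS mice without insulin and 6 Control-STAM-INS mice with it. STAM mice carry streptozotocin diabetes with steatohepatitis: male mice on a C57BL/6J background were given streptozotocin at 2 days of age and a high-fat diet from 4 weeks. All 10 mice had the genotype labelled Vilin-Cre(-); InsR-flox, so floxed insulin receptor alleles without the Cre that the villin promoter drives in gut epithelium. Insulin degludec, a long-acting insulin analogue, was injected under the skin 2 times per day from 6 weeks of age, at a dose raised with blood glucose up to 12 U/kg, and the ileum was taken at 20 weeks. The Control-STAM-nonINS mice shared the streptozotocin and the diet and were labelled as without insulin, and the study's methods give normal saline for the controls of the insulin experiment. The other 6 libraries, ieIRKO-STAM-INS, entered the fit for its filter on low counts and its estimate of the spread.

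Insulin binds its receptor at the cell surface and signals through the insulin receptor substrates, PI3K and AKT. AKT keeps FOXO transcription factors out of the nucleus and so holds down genes of gluconeogenesis, and it feeds the mTORC1 pathway of protein synthesis. When insulin is low, tissues shift to fatty acids, and PPAR-alpha drives the genes of fatty acid oxidation and of ketone body formation. The small intestine can express both sets of genes: its epithelium oxidises fatty acids, holds gluconeogenic enzymes and lies beside secretory Paneth, goblet and enteroendocrine cells that fold large amounts of protein in the endoplasmic reticulum.

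The authors' read counts per gene summed to between 13288018 and 22215382 per control library. Levels below are counts per 1000000 after TMM scaling of library size (CPM), SE is the standard error of the log2 fold change, and tests are edgeR's quasi-likelihood test with Benjamini-Hochberg adjustment over all 15267 genes tested, with a gene called changed at an adjusted p under 0.05. The tissue matched its label: the ileal bile acid binding protein Fabp6 had a median of 5122 CPM in Control-STAM-INS. Of 11 markers of pancreatic acinar cells, only 1 passed the filter on low counts, and it stayed at or under 9.23 CPM in each of the 10 libraries. Control-STAM-nonINS replicates 1 and 4 stood apart from the others of their group. In replicate 1 the summed immediate early genes were 5189 CPM against 3474, 3863 and 2019.6 in replicates 2 to 4. Replicate 4 had a summed endothelial level of 738 CPM against 285 to 381 in the other 3, and a summed level of brush border enzymes of 23787 against 32479 to 39857.

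With insulin, 570 genes were higher and 1032 lower, which is 3.73% and 6.76% of the genes tested (10.5% in either direction). A 2-fold rise or more was seen in 107 of the genes called higher, and a fall to 0.5-fold or less in 283 of those called lower. Without Control-STAM-nonINS replicate 1 the counts were 244 higher and 580 lower, and without replicate 3 they were 330 and 740. Of the 136 called genes named in the text, 78 were called in each of the 10 fits that left out 1 library, and 58 lost the call in at least 1 of them, 53 of these without replicate 1. The median log2 fold change over all genes tested was -0.0043. The plot of 33 programme lists shows where these changes lay. Members of fatty acid oxidation and ketogenesis, immediate early genes, glucocorticoid-responsive genes and conjugation enzymes were called lower, with 16 of 38, 14 of 33, 11 of 22 and 12 of 35 tested members and 0 called higher in each. The unfolded protein response was the programme outside the alpha-defensins with the most members called higher, 15 of 27, with 0 lower. None of the 19 brush border enzymes, 15 genes of bile acid uptake, 59 nuclear genes of oxidative phosphorylation, 23 heat shock genes or 11 genes of MHC class II presentation was called in either direction, and of their 127 members together 7 had an unadjusted p under 0.05. In DESeq2, 3 of these members passed.

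**Figure D1:**
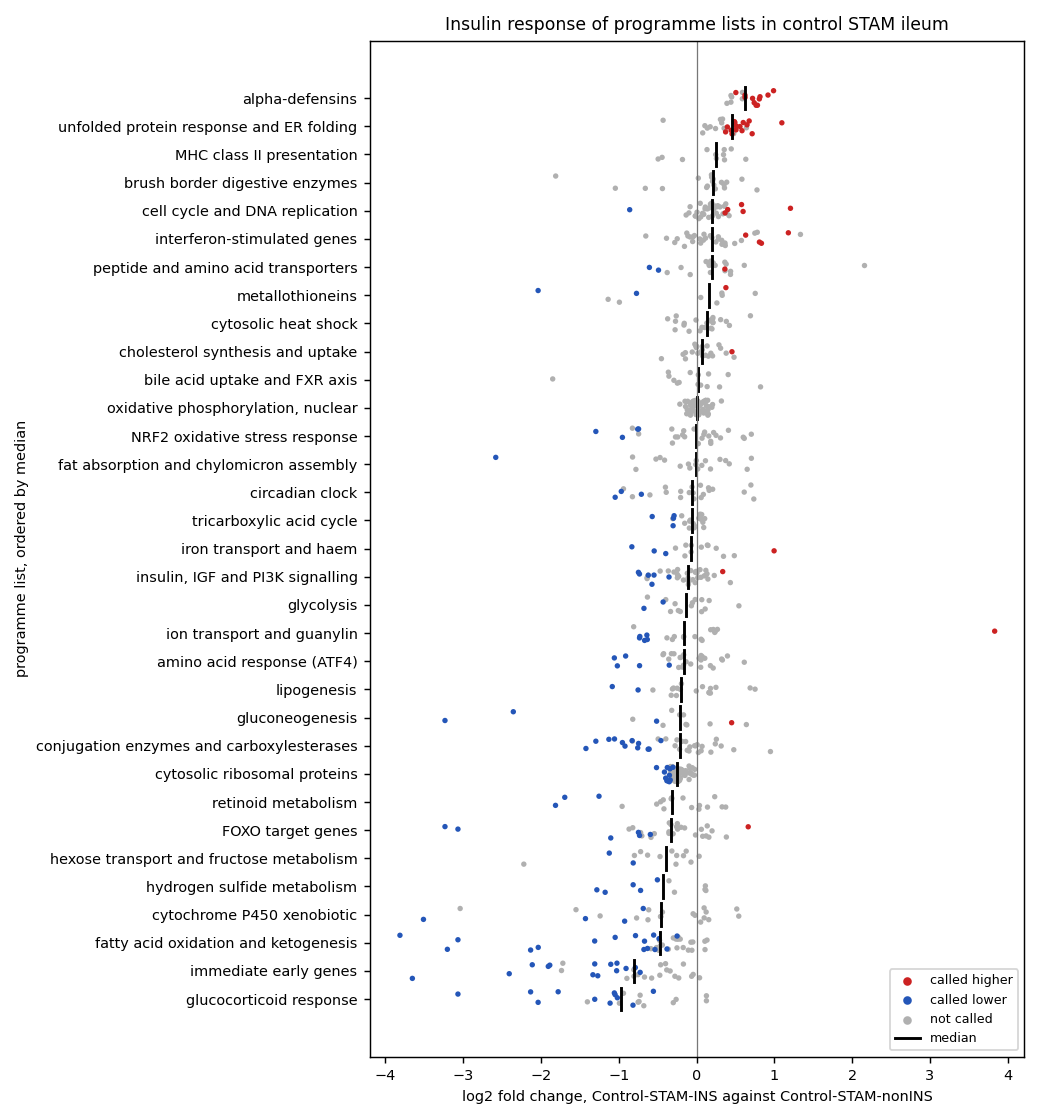
Log2 fold change (Control-STAM-INS against Control-STAM-nonINS, x axis) of every tested member of 33 programme lists (1 list per line of the y axis). Each point is a gene, red where called higher, blue where called lower at an adjusted p under 0.05 and grey otherwise, and the black tick is the list's median. The points of the fatty acid oxidation and glucocorticoid lists reach far to the left, with medians of -0.47 and -0.97, and those of the unfolded protein response lie to the right, with a median of 0.46.

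Genes of fatty acid oxidation and ketogenesis were lower in the insulin-treated ileum. Of 38 tested members, 35 had a negative log2 fold change and 16 were called lower (12 without Control-STAM-nonINS replicate 1, 12 without replicate 3 and 16 without replicate 4), with a list median of -0.47. The plot of metabolic genes gives the libraries one by one, and over all genes tested 6.23% had every treated library below every untreated one. In bulk tissue, fewer cells of a type and less RNA per cell cannot be told apart.

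Within the mitochondrial spiral of beta-oxidation, the acyl-CoA dehydrogenases Acadl, Acadvl and Acads, which open each round for long, very long and short chains, were all called lower. Acadl had 251, 193, 220.2 and 199 CPM in the 4 untreated libraries and 105, 118 and 162 as lowest, median and highest of the treated ones, with a gap between the groups and a log2 fold change of -0.78 (SE 0.13, adjusted p = 0.000947 from edgeR). The log2 fold change was -0.53 for Acadvl and -0.48 for Acads (adjusted p = 0.00408 and 0.0126 from edgeR). Acaa2, the thiolase that closes the round, went from 182 ± 42.5 CPM (SD, n = 4) to 88.1 ± 14.6 (SD, n = 6), a log2 fold change of -1.05. The medium-chain enzyme Acadm (-0.25, adjusted p = 0.18 from edgeR) and the trifunctional protein subunits Hadha (-0.49, adjusted p = 0.0597) and Hadhb (-0.44, adjusted p = 0.0692) did not pass. Neither did Cpt1a, the carnitine palmitoyltransferase that admits long chains to the mitochondrion, although its groups did not overlap: it had 262, 231, 214 and 222 CPM without insulin and 113, 160.0 and 188 with it (log2 fold change -0.59, adjusted p = 0.103 from edgeR).

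Larger log2 fold changes were seen in single genes outside the spiral, each of them a known PPAR-alpha target and named after its values were seen. Acaa1b, a peroxisomal thiolase, had 33.2, 34.7, 60.4 and 115 CPM in Control-STAM-nonINS and 1.32, 6.26 and 10.6 in Control-STAM-INS, a log2 fold change of -3.20 (SE 0.57, adjusted p = 0.0036 from edgeR). Its highest treated library was below its lowest untreated one. The acyl-CoA thioesterases Acot1 and Acot2, which are close paralogs and can share reads, had log2 fold changes of -2.03 and -1.31 (adjusted p = 0.00164 and 0.00307 from edgeR). Pdk4, the kinase that switches off pyruvate dehydrogenase and so spares glucose, fell from 130.2, 99.1, 110.3 and 84.4 CPM to 3.71, 10.8 and 30.2 CPM as lowest, median and highest. The groups were far apart, with a log2 fold change of -3.07 (SE 0.61, adjusted p = 0.0065 from edgeR). Angptl4, a secreted inhibitor of lipoprotein lipase, had 286, 256, 259 and 96.5 CPM without insulin and 37.3, 48.7 and 74.5 with it, and its untreated replicate 4 lay nearest to the treated group (log2 fold change -2.13, adjusted p = 0.0166 from edgeR). Ppara itself had a log2 fold change of -0.48 and did not pass (adjusted p = 0.418 from edgeR).

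**Figure D2:**
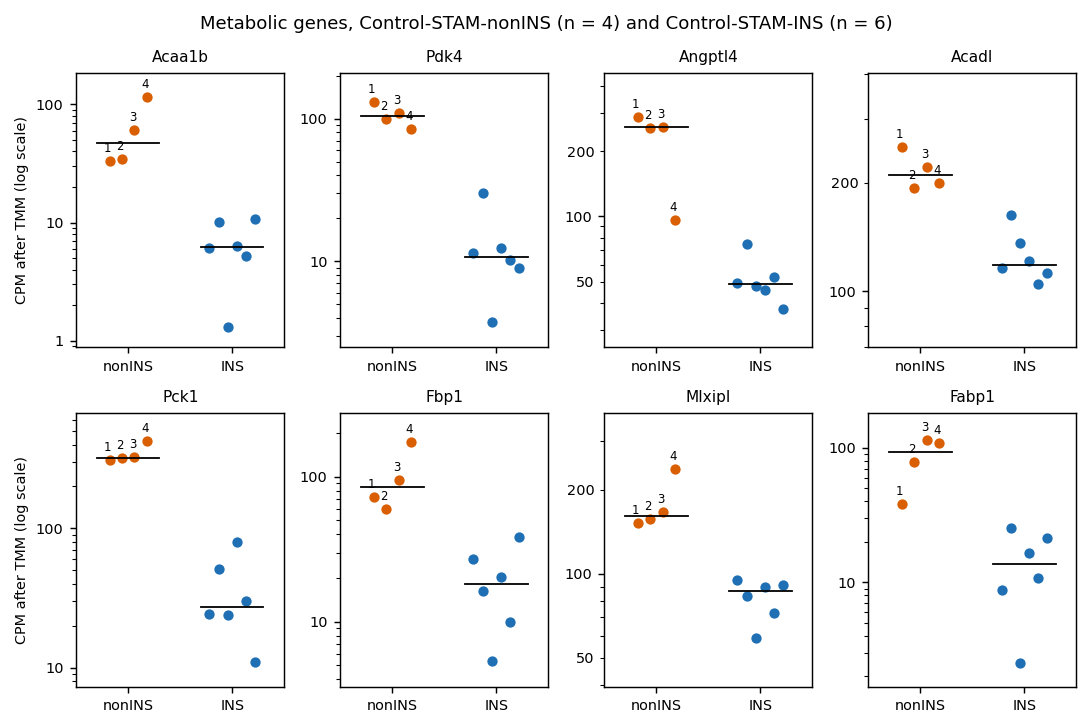
Level of 8 metabolic genes in each of the 10 libraries (y axis, CPM after TMM, log scale), for Control-STAM-nonINS (orange, marked with the replicate number) and Control-STAM-INS (blue). Horizontal bars are group medians, and for all 8 genes the blue points lie below every orange point, with Acaa1b between 1.32 and 10.6 CPM against 33.2 to 115.

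Gluconeogenic genes did not move as a whole list: of 13 members, 3 were lower and 1 higher (1 lower without Control-STAM-nonINS replicate 1 or 4, or Control-STAM-INS replicate 3 or 5), with a median log2 fold change of -0.22. Pck1, the cytosolic PEP carboxykinase that starts gluconeogenesis from oxaloacetate, had 312, 318, 326 and 424 CPM in the untreated libraries against 10.99, 27.3 and 79.9 in the treated ones. The treated libraries were all lower, but spread over several-fold, and the adjusted p of 0.0351 (edgeR, log2 fold change -3.23, SE 0.89) lay near the threshold and held in 2 of 10 leave-one-out fits. Over those fits it reached 0.0714. Fbp1, fructose-1,6-bisphosphatase, had 73.004, 60.4, 95.7 and 174 CPM without insulin and 5.33, 18.3 and 38.2 with it, a log2 fold change of -2.35 (SE 0.46, adjusted p = 0.00595 from edgeR) without overlap. Slc37a4, which carries glucose 6-phosphate into the endoplasmic reticulum for the last step, changed by -0.51 (adjusted p = 0.0269 from edgeR). G6pc, the phosphatase of that step, did not pass (log2 fold change -0.82, adjusted p = 0.47 from edgeR). Ldhb, which favours lactate to pyruvate, was the member called higher (0.45, adjusted p = 0.0278 from edgeR).

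Of 14 genes of hexose transport and fructose metabolism, 2 were lower and 0 higher, Mlxipl and Khk (1 lower without Control-STAM-nonINS replicate 3 or 4, where Khk had an adjusted p of up to 0.0887). Mlxipl encodes ChREBP, the transcription factor that responds to sugar. It had 152, 157, 167 and 237 CPM in Control-STAM-nonINS and 58.99, 86.6 and 95.04 in Control-STAM-INS, with no overlap and a log2 fold change of -1.12 (SE 0.17, adjusted p = 0.000624 from edgeR). Khk, ketohexokinase, which phosphorylates fructose, was lower too, from 236 ± 70.9 CPM (SD, n = 4) to 134 ± 29.5 (SD, n = 6; log2 fold change -0.81, adjusted p = 0.0208 from edgeR). Slc2a2, the basolateral hexose transporter GLUT2, had 196, 139, 220.0 and 179.8 CPM without insulin and 3.71, 38.5 and 78.3 with it. Its libraries did not overlap, and the log2 fold change of -2.22 did not pass (SE 0.73, adjusted p = 0.0692 from edgeR). Txnip, a sugar-induced gene that ChREBP is known to drive, had a log2 fold change of -0.72 (SE 0.35, adjusted p = 0.207 from edgeR). The luminal sodium-glucose transporter Slc5a1 (SGLT1) did not pass (-0.32, adjusted p = 0.445 from edgeR). In glycolysis, 2 of 16 members were lower (1 without Control-STAM-nonINS replicate 1 or 3), the hexokinase Hk1 (-0.68) and the enolase Eno1 (-0.43), with adjusted p = 0.00841 and 0.0293 from edgeR.

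Lipid synthesis and fat absorption were called at few genes. Fabp1, the fatty acid binding protein of proximal enterocytes, was among the 10 largest falls, with 38.2, 78.8, 115 and 109 CPM without insulin and 2.52, 13.8 and 25.5 with it (log2 fold change -2.58, SE 0.57, adjusted p = 0.0117 from edgeR). It was the 1 member of 20 in the fat absorption list that was called (2 lower and 1 higher without Control-STAM-nonINS replicate 2, and 2 lower without replicate 4). With replicate number as a block in the fit, 0 of the 20 were lower. Acacb, the acetyl-CoA carboxylase whose malonyl-CoA restrains Cpt1a, fell by 1.08 on the log2 scale, and Lpin1, a phosphatidate phosphatase and coactivator, by 0.75 (adjusted p = 0.0102 and 0.022 from edgeR), which made 2 of 19 lipogenesis genes (1 without Control-STAM-nonINS replicate 1 or 3). The sterol transfer protein Stard4 was the 1 of 25 genes of cholesterol synthesis and uptake that was called, higher by 0.46 (adjusted p = 0.0268 from edgeR), a call that was lost in 5 of 10 leave-one-out fits.

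A few components of the insulin and IGF pathway were themselves called lower. Of 39 members tested, 6 were lower and 1 higher (3 lower and 0 higher without Control-STAM-nonINS replicate 1, and 3 lower and 1 higher without replicate 4), with a median of -0.11. Of the 39, 12 had a positive log2 fold change, and 6.76% of all genes tested were called lower. At the receptors, Igf1r had 49.9, 36.9, 33.6 and 49.5 CPM in Control-STAM-nonINS and 22.3, 25.5 and 28.4 in Control-STAM-INS. Its groups did not overlap (log2 fold change -0.73, SE 0.13, adjusted p = 0.0019 from edgeR), and those of Insr, which changed by -0.75, did not either. Among the ligands and their binding proteins, Igf2 changed by -0.62 and Igfbp4, which holds IGFs inactive, by -0.57, while Igfbp5 rose by 0.34 (adjusted p = 0.0318, 0.00101 and 0.0167 from edgeR). Of the kinases, Akt1 was lower (-0.35, adjusted p = 0.018 from edgeR). The call of Igf2 held in 4 of 10 leave-one-out fits and that of Akt1 in 8. Irs2, a substrate of the receptor that insulin is known to repress in liver, had 53.8, 47.7, 45.6 and 43.5 CPM against 28.1, 37.7 and 67.2. These ranges overlapped widely, and the 95% confidence interval of its log2 fold change ran from -0.81 to 0.33.

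Among 31 tested FOXO target genes, 6 were lower and 1 higher, with a median of -0.33. They included Insr, Pck1 and Pdk4, already given, the mitophagy receptor Bnip3 (-0.59, adjusted p = 0.031 from edgeR) and the stress sensor Sesn2 (-0.73, adjusted p = 0.035 from edgeR). Cited2, a transcriptional coregulator, rose from 56.7, 63.7, 59.9 and 63.9 CPM to 76.2, 98.1 and 121 CPM as lowest, median and highest, without overlap (log2 fold change 0.66, SE 0.14, adjusted p = 0.00555 from edgeR). Leaving out Control-STAM-nonINS replicate 1 or 3 left 2 of the 31 lower, and leaving out Control-STAM-INS replicate 1, 5 or 6 left 3. Over the other alternatives the number lower ran from 2, with the replicate block, to 11.

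Immediate early genes, which answer growth factors, stress and neural input within minutes, were lower with insulin in 14 of 33 tested members, and 32 of the 33 had a negative log2 fold change. Control-STAM-nonINS replicate 1 was the highest library for many of them, and without it 7 were called lower (8 without replicate 3, 15 without replicate 4). The orphan nuclear receptor Nr4a1 showed the largest fall of the list. It had 105, 37.3, 35.96 and 14.3 CPM in the 4 untreated libraries and 1.96, 4.20 and 5.20 as lowest, median and highest of the treated ones, so that the lowest untreated library still lay above the highest treated one (log2 fold change -3.65, SE 0.62, adjusted p = 0.00258 from edgeR). Without replicate 1 its log2 fold change was -2.93 and it remained called. Fos, a partner in the AP-1 dimer, had 396, 102, 209 and 75.1 CPM against 25.03, 42.3 and 98.3, and Egr1, a zinc finger factor, 208, 23.1, 73.995 and 18.4 against 6.43, 9.93 and 38.3. In both, replicates 2 and 4 of the untreated group lay close to or inside the treated range, and the log2 fold changes of -1.91 and -2.41 passed narrowly (adjusted p = 0.0333 and 0.0369 from edgeR). Without replicate 1 they were -1.30 and -1.34 and neither passed (adjusted p = 0.149 and 0.215 from edgeR). Gadd45b, Csrnp1, Dusp1 and Klf2 did not overlap between the groups, with log2 fold changes of -1.27, -1.89, -1.31 and -1.10. Myc, the growth regulator, had its highest untreated level in replicate 4 rather than in replicate 1: 26.3, 30.3, 28.97 and 49.2 CPM without insulin and 15.5, 19.5 and 23.4 with it (log2 fold change -0.79, adjusted p = 0.00913 from edgeR). Adamts1, a secreted metalloprotease outside this list, was among the 10 largest falls, with 123, 19.8, 36.97 and 23.96 CPM against 6.23, 7.92 and 9.84, and its log2 fold change of -2.67 was -1.75 without replicate 1.

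The glucocorticoid response list, which holds genes that glucocorticoids induce beside the receptor and steroid enzymes, was lower in 11 of 22 tested members, with a median of -0.97 and 0 higher (6 lower without Control-STAM-nonINS replicate 1, 7 without replicate 3 and 10 without replicate 4). Dusp1, Pdk4 and Angptl4 stand on this list and on those above. Fkbp5, the immunophilin of the glucocorticoid receptor complex and a usual readout of the hormone, had 457, 238, 282 and 239 CPM in the untreated libraries and 82.05, 157 and 192 in the treated ones (log2 fold change -1.05, SE 0.29, adjusted p = 0.0337 from edgeR). Its groups did not overlap. Errfi1, an inhibitor of EGF receptor signalling, went from 224, 92.99, 96.3 and 50.03 CPM to 27.8, 31.9 and 44.4 CPM, again without overlap (log2 fold change -1.78, adjusted p = 0.0107 from edgeR). Cebpb, a transcription factor that also belongs to the amino acid response, changed by -1.02, and the krüppel-like factor Klf9 by -0.55 (adjusted p = 0.00307 and 0.0208 from edgeR). Of the enzymes that convert glucocorticoids themselves, Hsd11b2, which inactivates them, had a log2 fold change of -0.82, and Hsd11b1, which reactivates them, -1.11 (adjusted p = 0.00735 and 0.0244 from edgeR). Sgk1, the serum and glucocorticoid kinase, had 900.4, 726, 875 and 326 CPM against 177, 249 and 425 and did not pass (log2 fold change -1.40, adjusted p = 0.0634 from edgeR), nor did Tsc22d3, which encodes GILZ (-0.75, adjusted p = 0.144 from edgeR). The receptor gene Nr3c1 had a log2 fold change of 0.13 (adjusted p = 0.464 from edgeR).

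**Figure D3:**
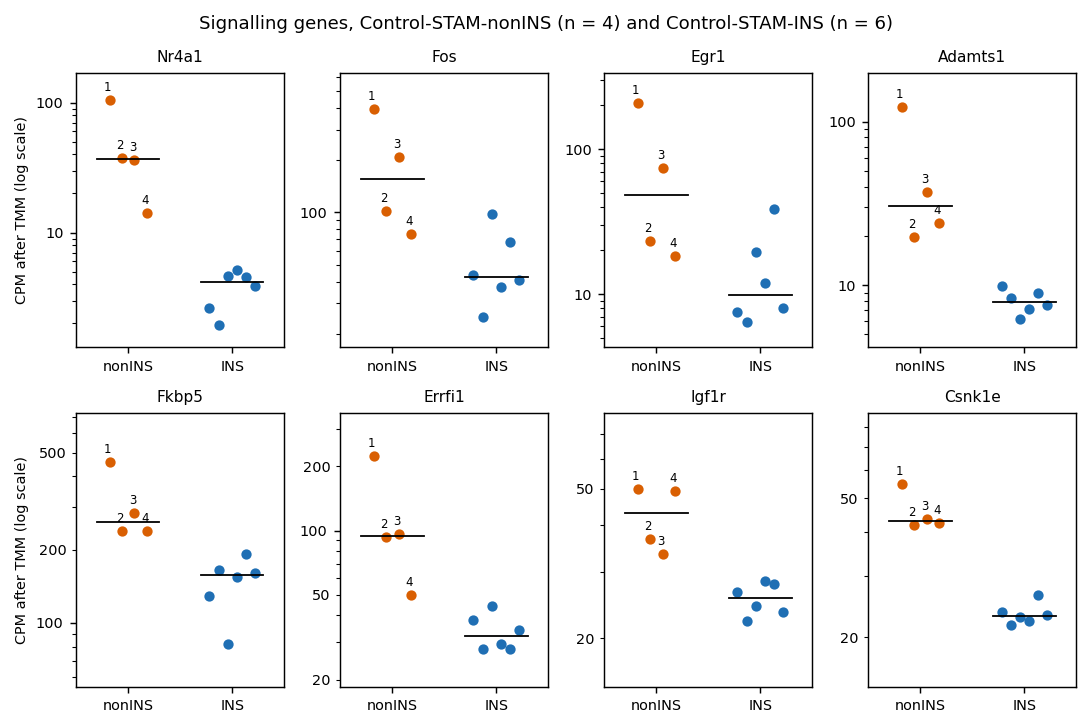
Level of 8 signalling and hormone-responsive genes in each library (y axis, CPM after TMM, log scale), for Control-STAM-nonINS (orange, marked with the replicate number) and Control-STAM-INS (blue), with bars at the group medians. Replicate 1 is the highest orange point in all 8 panels, with 208 CPM of Egr1 against 18.4 to 74 in replicates 2 to 4, and the blue and orange points overlap for Fos and Egr1.

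The clock list had 3 of 23 members lower and 0 higher, a count that was 3 without each untreated library in turn. Csnk1e, casein kinase 1 epsilon, which phosphorylates PER proteins, had 54.9, 41.8, 43.5 and 42.4 CPM without insulin and 21.7, 23.02 and 26.5 with it. The 2 ranges were narrow and apart, with a log2 fold change of -0.97 (SE 0.087, adjusted p = 1.08e-05 from edgeR). Bhlhe40 (DEC1), a repressor in the clock that also answers stress, changed by -1.05, and the nuclear receptor Rora by -0.71 (adjusted p = 0.00281 and 0.006 from edgeR). Of the core oscillator, Clock (0.15) and the repressor Nr1d1 (0.61) did not pass, with adjusted p = 0.315 and 0.0841 from edgeR.

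Promoter sequences from RefSeq (build GRCm38.p6, 250 bases before to 50 after a gene's start) were searched for 6 well-known response elements, each in the lists it is known for and on both strands, and the promoters of called genes that held one are shown with the element in capitals. The cAMP response element TGACGTCA is a site of CREB through which many immediate early genes are induced. It stood in 3 of the 26 immediate early genes that had a promoter in the table, against 1.79% of all 32851 promoters, and of the 8 called members with a promoter it stood in Btg2 and Dusp1. The metal response element, searched as TGCGCNC or TGCACNC, is the site through which zinc induces metallothioneins. It stood in 8 of 9 matched members of the metallothionein and zinc transporter list, against 25.7% of all promoters, and in all 3 called members, Mt2 and Slc30a2, which were lower, and Slc39a5, which was higher. The other searches found no called member: the cAMP response element stood in 0 of 12 gluconeogenic genes, the FOXO core GTAAACA in 3 of 26 FOXO targets but 0 of the 6 called ones (3.65% of all promoters), the E-box CACGTG in 5 and the D-box TTATGTAA in 1 of 18 clock genes but 0 of the 2 called ones (7.15% and 0.938%), and the sterol response element TCACNCCAC in 1 of 17 genes of cholesterol synthesis and uptake, where the 1 called gene had no promoter in the table (1.24%). Btg2 is a growth-restraining gene (chr1:134079106-134079405, minus strand) with the element 166 bases before its start, and Dusp1 is a phosphatase of MAP kinases (chr17:26508423-26508722, minus strand) with the element 143 bases before its start. Mt2 (chr8:94172368-94172667, plus strand) holds 4 matches, Slc30a2 (chr4:134343216-134343515, plus strand) 2 and Slc39a5 (chr10:128401175-128401474, minus strand) 1. A gene counted as holding an element where any of its promoters did, while the shares of all promoters count each promoter, so the units differ. A match describes letters and is no evidence of a bound site.
Btg2: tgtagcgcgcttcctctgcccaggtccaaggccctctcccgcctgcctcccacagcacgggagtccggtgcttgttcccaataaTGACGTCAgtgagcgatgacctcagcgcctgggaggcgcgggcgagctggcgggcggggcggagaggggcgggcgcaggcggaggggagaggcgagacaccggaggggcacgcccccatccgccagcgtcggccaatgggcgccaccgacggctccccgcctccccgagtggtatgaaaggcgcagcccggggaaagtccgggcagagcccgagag
Dusp1: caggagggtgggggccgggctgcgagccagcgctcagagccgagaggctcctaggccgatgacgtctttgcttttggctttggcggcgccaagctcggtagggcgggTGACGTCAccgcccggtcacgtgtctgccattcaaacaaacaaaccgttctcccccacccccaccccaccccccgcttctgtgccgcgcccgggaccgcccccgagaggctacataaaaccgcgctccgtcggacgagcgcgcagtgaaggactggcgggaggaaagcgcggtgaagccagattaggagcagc
Mt2: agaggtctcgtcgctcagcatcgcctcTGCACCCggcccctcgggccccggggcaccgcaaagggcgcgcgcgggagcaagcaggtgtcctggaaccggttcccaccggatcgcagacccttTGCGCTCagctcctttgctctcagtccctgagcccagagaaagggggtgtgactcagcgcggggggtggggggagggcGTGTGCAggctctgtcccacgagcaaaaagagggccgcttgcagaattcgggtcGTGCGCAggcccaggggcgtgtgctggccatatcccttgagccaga
Slc30a2: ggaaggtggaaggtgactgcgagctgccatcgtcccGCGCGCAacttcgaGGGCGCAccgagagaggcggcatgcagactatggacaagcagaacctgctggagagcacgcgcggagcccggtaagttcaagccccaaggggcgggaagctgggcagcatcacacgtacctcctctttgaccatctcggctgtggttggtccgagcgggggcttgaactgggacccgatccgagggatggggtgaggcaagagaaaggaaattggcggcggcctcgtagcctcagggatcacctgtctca
Slc39a5: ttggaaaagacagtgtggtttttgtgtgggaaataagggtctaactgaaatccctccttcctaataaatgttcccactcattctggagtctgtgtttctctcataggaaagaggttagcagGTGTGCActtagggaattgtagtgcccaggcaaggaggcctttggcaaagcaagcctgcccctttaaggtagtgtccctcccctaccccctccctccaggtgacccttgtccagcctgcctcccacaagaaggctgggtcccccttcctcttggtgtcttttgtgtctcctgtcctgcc

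Of the metallothionein and zinc list, 2 of 10 members were lower and 1 higher (1 lower without Control-STAM-nonINS replicate 1, 2 or 3, and 0 higher without 1, 3 or 4). Mt2, a cysteine-rich protein that buffers zinc, had 244, 385, 412 and 117 CPM in Control-STAM-nonINS and 11.6, 72.2 and 148 in Control-STAM-INS. The groups overlapped at untreated replicate 4, and the log2 fold change of -2.04 (SE 0.55, adjusted p = 0.0316 from edgeR) passed in 4 of 10 leave-one-out fits, with an adjusted p of up to 0.0837. An antisense gene lies across Mt2, and strand was not stated for the counting, so reads of both cannot be told apart. Slc30a2, which moves zinc into vesicles and is prominent in Paneth cells, changed by -0.77, with 132, 147, 132 and 84.4 CPM against 56.2, 72.6 and 85.2, and Slc39a5, a basolateral zinc importer, rose by 0.38 (adjusted p = 0.0033 and 0.0351 from edgeR).

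Genes of protein folding in the endoplasmic reticulum were higher with insulin. Of 27 members of the unfolded protein response list, 26 had a positive log2 fold change and 15 were called higher, with a median of 0.46. The count was 6 without Control-STAM-nonINS replicate 1 and 6 without replicate 4, and between 6 and 14 over the 10 fits that each left out a library. The shifts were modest and shared, as the plot of the 15 called members shows. Over all 27 members, 15 had every treated library above every untreated one, and 4.4% of all genes tested did. Sdf2l1, a partner of the ER chaperone BiP, had the largest fold, with 19.8, 29.7, 26.3 and 22.4 CPM without insulin and 41.3, 50.4 and 73.5 with it. No treated library reached down to the untreated range (log2 fold change 1.10, SE 0.18, adjusted p = 0.00136 from edgeR). Hspa5, which encodes BiP itself, had 378, 419, 504 and 362 CPM against 573, 648 and 724, again without overlap (log2 fold change 0.65, SE 0.19, adjusted p = 0.0374 from edgeR). The lectin-like chaperones Canx and Calr, which hold glycoproteins while they fold, rose by 0.44 and 0.49, and the HSP90 of this compartment, Hsp90b1, by 0.49. Co-chaperones and disulfide isomerases were among the members called higher: Dnajb11 (0.51), Dnajc3 (0.40), Pdia4 (0.51), Pdia6 (0.46), Manf (0.68), Hyou1 (0.56) and Creld2 (0.72), with adjusted p from 0.0167 to 0.0419 in edgeR.

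Members of the same list that act in the removal of misfolded proteins were also called higher. Selenos, a selenoprotein of the export channel, had 48.7, 42.6, 36.9 and 40.1 CPM in the untreated libraries and 52.7, 65.1 and 68.7 in the treated ones, and Syvn1, its ubiquitin ligase, 58.8, 79.6, 61.1 and 59.2 against 90.9, 92.7 and 109.9. Both were free of overlap, with log2 fold changes of 0.60 and 0.58 (adjusted p = 0.00361 and 0.00535 from edgeR). Edem1, which pulls mannose-trimmed proteins out of folding, rose by 0.37 (adjusted p = 0.0475 from edgeR), a call that held in 1 of 10 leave-one-out fits, with an adjusted p of up to 0.146. The sensors that start the response were not called: Atf6 had 0.18, Ern1 (IRE1-alpha) 0.079, Eif2ak3 (PERK) 0.11 and the transcription factor Xbp1 0.14, with adjusted p from 0.385 to 0.727 in edgeR. Control-STAM-nonINS replicate 4 had the lowest summed level of the list, 3821 CPM against 4759.9 to 5003 in the other untreated libraries and 5539 to 7006 in the treated ones. Its summed enterocyte and Paneth markers were the lowest of the 4 as well, and their part in the result was not tested.

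**Figure D4:**
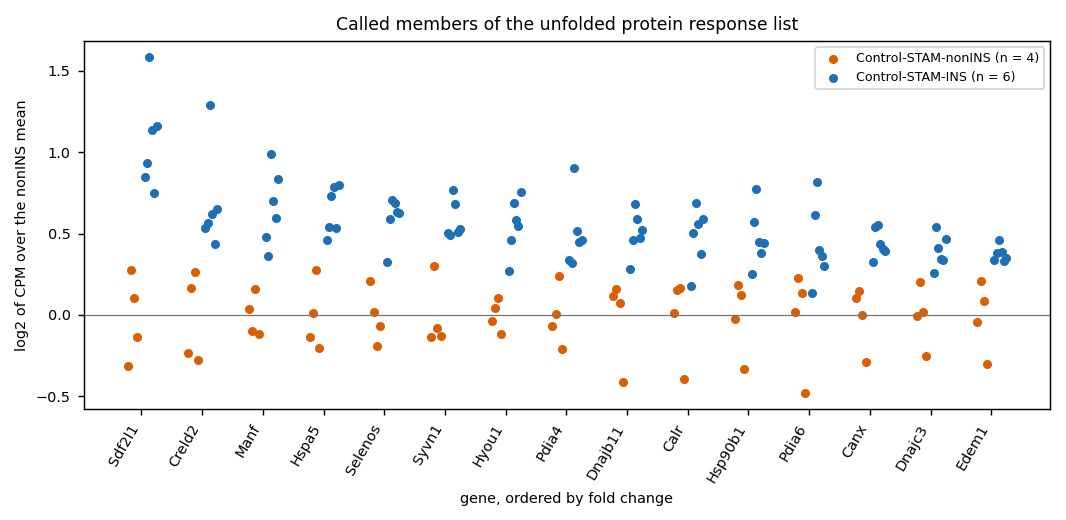
Log2 ratio of each library's CPM to the Control-STAM-nonINS mean (y axis) for the 15 called members of the unfolded protein response list (x axis, ordered by fold change), with Control-STAM-nonINS in orange and Control-STAM-INS in blue. Blue points lie above the orange ones for 14 of the 15 genes, and Pdia6 is the gene where they overlap.

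The amino acid response, a branch downstream of PERK and GCN2, had 5 of 30 members lower and 0 higher (4 without Control-STAM-nonINS replicate 4, 1 without its replicate 1 or 3, and 2 or 3 without Control-STAM-INS replicate 1, 3, 4, 5 or 6). The members called were Cebpb, Sesn2, Ddit4, an mTORC1 inhibitor (-1.06), Ppp1r15a, the phosphatase subunit GADD34 (-0.91), and the seryl-tRNA synthetase Sars (-0.35), with adjusted p = 0.0407, 0.0177 and 0.0347 from edgeR for the last 3. Atf4, the factor that drives the list, did not pass (-0.23, adjusted p = 0.275 from edgeR). Whether the 2 lists differ in response was not tested.

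Some detoxification enzymes of several families were called lower. Of 35 conjugation enzymes and carboxylesterases, 12 were lower and 0 higher, with a median of -0.22 (8 without Control-STAM-nonINS replicate 1, 9 without replicate 3 and 9 without replicate 4). Of the 35, 10 had a positive log2 fold change, and 6.76% of all genes tested were called lower. Glutathione transferases made up 6 of the 12: Gstt1, Gstm1, Gstm3, Gstp1, Gsta1 and Gsta4, with log2 fold changes from -1.29 for Gstm3 to -0.46 for Gstp1. Members of the GSTM and GSTA families are close paralogs and can share reads. Gstt1 had 30.5, 26.7, 40.1 and 44.7 CPM in Control-STAM-nonINS and 14.5, 16.2 and 22.8 in Control-STAM-INS, which did not overlap (log2 fold change -1.05, SE 0.15, adjusted p = 0.000393 from edgeR). The glucuronosyltransferases Ugt1a1, Ugt1a6a and Ugt1a7c share exons, and were lower by 0.61, 1.42 and 0.62 on the log2 scale. Sult1d1, a sulfotransferase of dopamine and other small phenols, was also lower, with 416, 344, 335 and 369.5 CPM against 154, 204 and 265 (log2 fold change -0.83, adjusted p = 0.00624 from edgeR). The 4 GST genes called on the NRF2 list of 28 are Gstm1, Gstm3, Gsta1 and Gsta4, of which 2 were called without Control-STAM-nonINS replicate 1 or 3 or Control-STAM-INS replicate 1, 4 or 5. The other NRF2 targets were not called, among them Nqo1 (-0.15), Hmox1 (-0.27) and Gclc (0.16).

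Of 22 cytochrome P450 genes, 4 were lower and 0 higher (3 lower without Control-STAM-nonINS replicate 1 or 4). Cyp4b1, an omega-hydroxylase, had 109, 108, 148 and 138 CPM without insulin and 33.6, 41.6 and 79.4 with it, and Cyp27a1, the sterol 27-hydroxylase of the alternative bile acid pathway, 78.96, 76.8, 63.3 and 68.2 against 33.000, 36.2 and 46.1. Neither overlapped (log2 fold changes -1.43 and -0.92, adjusted p = 0.0164 and 0.0047 from edgeR). Cyp2c66, a low-level member of the CYP2C family whose close paralogs can share reads, had 1.47, 5.72, 5.54 and 1.40 CPM against 0, 0.17 and 0.83, and no library of one group reached the other (log2 fold change -3.51, adjusted p = 0.00196 from edgeR). The remaining called member was Cyp2j9 (-0.68, adjusted p = 0.0495 from edgeR). In retinoid metabolism 3 of 19 members were lower (2 without Control-STAM-nonINS replicate 1 or 3, and 4 without replicate 4), the alcohol dehydrogenase Adh1 (-1.25, adjusted p = 0.000396 from edgeR) and the retinol dehydrogenases Rdh1 (-1.69) and Rdh7 (-1.81).

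Of 10 genes of hydrogen sulfide and cysteine metabolism, which make and clear this product of gut bacteria and of cysteine, 5 were lower (4 without Control-STAM-nonINS replicate 1 or 3, and 3 without replicate 4). Tst, the mitochondrial thiosulfate sulfurtransferase rhodanese, had 55.8, 32.5, 59.01 and 55.01 CPM in the untreated group and 16.1, 21.2 and 24.1 in the treated one. Ethe1, the persulfide dioxygenase of the same mitochondrial route, had 64.4, 48.8, 64.04 and 53.3 against 25.4, 32.1 and 40.5. In both genes the groups stood clear of each other, with log2 fold changes of -1.28 (SE 0.15, adjusted p = 8.96e-05 from edgeR) and -0.81 (SE 0.12, adjusted p = 0.000605 from edgeR). Sqor, the quinone reductase that starts the route, was not called (-0.28, adjusted p = 0.156 from edgeR).

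Of 20 genes of ion transport and guanylin, 5 were lower and 1 higher (4 lower without Control-STAM-nonINS replicate 1, 3 or 4). Slc12a2 (NKCC1), which loads crypt cells with chloride, had 371, 247, 267 and 294 CPM without insulin and 157, 175 and 207 with it. Cftr, the apical chloride channel through which it leaves, had 111, 80.1, 105 and 128 against 50.8, 68.4 and 78.5, and Kcnq1, a potassium channel that sustains the drive, 120.0, 93.5, 91.8 and 143 against 55.2, 68.6 and 74.7. No library of one group entered the range of the other for any of the 3, with log2 fold changes of -0.73, -0.67 and -0.73 (adjusted p = 0.000919, 0.00579 and 0.00138 from edgeR). Guca2a, guanylin, the peptide that activates this secretion, was lower by 0.64 on the log2 scale with overlapping groups (adjusted p = 0.034 from edgeR). The member called higher, the calcium-binding protein S100g, was nearly absent: it had 0 to 9 counts in untreated libraries and 20 to 66 in treated ones.

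Of 15 iron genes, 3 were lower and 1 higher (1 lower without Control-STAM-nonINS replicate 1 or Control-STAM-INS replicate 3, 4, 5 or 6). The hypoxia factor HIF-2-alpha, Epas1, which drives iron uptake in enterocytes, had 129, 102, 116 and 138 CPM against 68.6, 88.8 and 90.9 (log2 fold change -0.54, adjusted p = 0.00406 from edgeR), the brush border reductase Cybrd1 changed by -0.83 and the transferrin receptor Tfrc by -0.40 (adjusted p = 0.0441 and 0.0391 from edgeR). Slc40a1, ferroportin, which exports iron, had 44.5, 68.2, 32.3 and 25.6 CPM against 51.3, 89.6 and 109.8. The ranges overlapped, and its rise of 1.00 (adjusted p = 0.0488 from edgeR) passed in 2 of 10 leave-one-out fits, with an adjusted p of up to 0.139.

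Protein synthesis and energy genes changed little per gene. All 78 cytosolic ribosomal protein genes had a negative log2 fold change, with a median of -0.25 (-0.16 without Control-STAM-nonINS replicate 4), and 11 were called lower. This count varied with the processing. It was 5 with upper-quartile normalization, where the median over all genes shifted to 0.0208 and that of the list was -0.23. It was 6, 20, 3 and 3 without Control-STAM-nonINS replicates 1, 2, 3 and 4, and 5 or 6 without each Control-STAM-INS library. Over the alternatives other than leaving out 1 library it ran from 0, with the added fold threshold, to 24. Of the 78 genes, 21 had every treated library below every untreated one, as 6.23% of all genes tested did. Rpl39 had the smallest p of the list, with 252, 244, 290.4 and 329 CPM against 178, 189 and 216 (log2 fold change -0.51, SE 0.097, adjusted p = 0.00297 from edgeR). Nuclear genes of oxidative phosphorylation had a median of 0.01, and 4 of 20 genes of the tricarboxylic acid cycle were lower (1 without Control-STAM-nonINS replicate 1, and 2 without its replicate 4 or Control-STAM-INS replicate 4), from Idh2 (-0.57) to Pdha1 (-0.29). Of 38 cell cycle genes, 5 were higher and 1 lower. Ccnd1 (cyclin D1) had 75.7, 79.6, 76.3 and 71.5 CPM without insulin and 99.1, 115 and 130.3 with it, a log2 fold change of 0.60 (adjusted p = 0.0223 from edgeR), and Ccne2 (cyclin E2) rose by 1.21 (adjusted p = 0.0178 from edgeR). With either Control-STAM-nonINS replicate 1 or replicate 4 left out, 0 of the 38 were higher in edgeR (3 without Control-STAM-INS replicate 2, and unadjusted p under 0.05 in 10 and 7 of them).

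Of 12 markers of T cells and intraepithelial lymphocytes, 5 were higher and 0 lower (3 higher without Control-STAM-nonINS replicate 1), with a median of 0.94, and their summed level was 33.4 to 64.8 CPM in Control-STAM-nonINS and 57.8 to 97.9 in Control-STAM-INS. Cd3g, a chain of the T cell receptor complex, had 0.804, 2.59, 2.40 and 2.41 CPM against 5.34, 6.62 and 8.89, and Cd3e, another, 0.804, 1.80, 2.07 and 3.15 against 3.53, 5.82 and 6.98. Cd8a, the coreceptor of cytotoxic and many intraepithelial T cells, had 1.94, 1.96, 2.46 and 3.80 against 4.85, 5.91 and 10.3. Treated libraries were above untreated ones throughout, with log2 fold changes of 1.74, 1.47 and 1.33 (adjusted p = 0.00398, 0.0336 and 0.00341 from edgeR). Itgae (CD103), the integrin that holds such cells in the epithelium, rose by 0.99 (adjusted p = 0.00821 from edgeR). Of 12 myeloid markers, Itgam (CD11b) and the chemokine receptor Ccr2 were higher (Itgam alone without Control-STAM-nonINS replicate 1 or 3), by 1.29 and 1.16 (adjusted p = 0.00098 and 0.0159 from edgeR). Itgam overlaps another annotated gene on the same strand, so that reads of both cannot be separated.

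Interferon-stimulated genes were called higher in 4 of 35 members (3 without Control-STAM-nonINS replicate 1), and 11 of the 35 had a negative log2 fold change, with a median of 0.20. The called genes include the transcription factor Irf1, the GTPase Gbp2 and the antiviral Mx1. Irf1 had 93.1, 120.2, 106 and 86.1 CPM without insulin and 151, 161 and 252 with it, and no values were shared (log2 fold change 0.81, SE 0.15, adjusted p = 0.00262 from edgeR). Isg15 (0.20, adjusted p = 0.742 from edgeR) and Irf7 (-0.13, adjusted p = 0.751) were not called.

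Enteroendocrine genes were lower in 5 of 17 members, with a median of -0.63 and 0 higher (2 without Control-STAM-nonINS replicate 1 and 3 without replicate 4). Chgb and Chga, chromogranins of hormone granules, had 130.4, 75.7, 54.8 and 107 and 56.1, 38.7, 35.8 and 42.2 CPM in the untreated libraries, and 12.9, 23.9 and 41.1 and 15.1, 21.1 and 30.7 in the treated ones. Neither gene overlapped between the groups (log2 fold changes -1.84 and -0.92, adjusted p = 0.0054 and 0.0197 from edgeR). Tph1, which makes serotonin in enterochromaffin cells, fell by 2.10 on the log2 scale, and the proglucagon gene Gcg, source of GLP-1, by 0.95 (adjusted p = 0.001 and 0.0398 from edgeR). Cholecystokinin, Cck (-0.39, adjusted p = 0.356 from edgeR), and somatostatin, Sst (-0.28, adjusted p = 0.366), did not pass. In the Paneth list outside the defensins, 2 of 11 tested members were called, Itln1 and Habp2, both higher (1.39 and 0.95, adjusted p = 0.00615 and 0.00722 from edgeR). Of the 11, 3 had a negative log2 fold change. The summed level overlapped, with 2381 to 4114 CPM in Control-STAM-nonINS and 3006 to 4946 in Control-STAM-INS. Of the alpha-defensins, 11 of 17 tested were higher and 0 lower, with 3, 2 and 3 called without Control-STAM-nonINS replicate 1, 3 or 4, and 7 and 6 without Control-STAM-INS replicate 3 or 4. In 1 of the 17 every treated library was above every untreated one, as in 4.4% of all genes tested. Alpha-defensins are close paralogs and can share reads.

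Blood and vessel markers differed as well. The 5 erythrocyte genes were all lower, with a summed level of 514, 73.1, 93.6 and 386 CPM in the untreated replicates 1 to 4 and 32.3 to 95.4 in the treated libraries. In the sum, replicates 1 and 4 stood high, and replicates 2 and 3 lay within the treated range. Without replicate 1, 2 of the 5 were called, and without replicate 4, 3 were. The list's median of -2.14 was -1.58 without replicate 1 and -1.96 without replicate 4. In 1 of the 5 genes every treated library was below every untreated one. Globin genes are near-identical pairs, and their counts can be split between copies. Of 12 endothelial genes, 3 were lower with all libraries, 0 without replicate 1 or without replicate 4, and 8 without replicate 2. The median of the list was -0.52, and -0.25 without replicate 4. Smooth muscle, fibroblast, mesothelial, adipocyte and B cell markers had 0 called members (3 of 10 B cell and plasma cell markers were higher, and 2 of 12 fibroblast markers lower, without Control-STAM-nonINS replicate 4), and 1 of 11 goblet cell markers, Atoh1, was lower (-0.56, adjusted p = 0.0367 from edgeR), while without Control-STAM-nonINS replicate 1, 3 or 4 none was lower and 1 was higher. Of 14 jejunal enterocyte markers, Fabp1 and Adh1 were lower and 0 higher, also without each untreated library in turn, with 10 negative log2 fold changes and a median of -0.38 (0.15 for the 13 ileal enterocyte markers, and -0.074 for these without Control-STAM-nonINS replicate 4), and the summed level of the list was 3824 to 6305 CPM in Control-STAM-nonINS and 3163 to 8246 in Control-STAM-INS. Its part in the results for metabolic genes was not tested. Adipocyte markers had a median of -0.70 with 10 of 11 members negative, and 0.10 without Control-STAM-nonINS replicate 3, where their summed level was 849 CPM against 298 to 512 in the other untreated libraries and 296 to 625 in the treated ones. The part of red cells, endothelium and adipocytes in the results for metabolic genes was not tested.

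**Figure D5:**
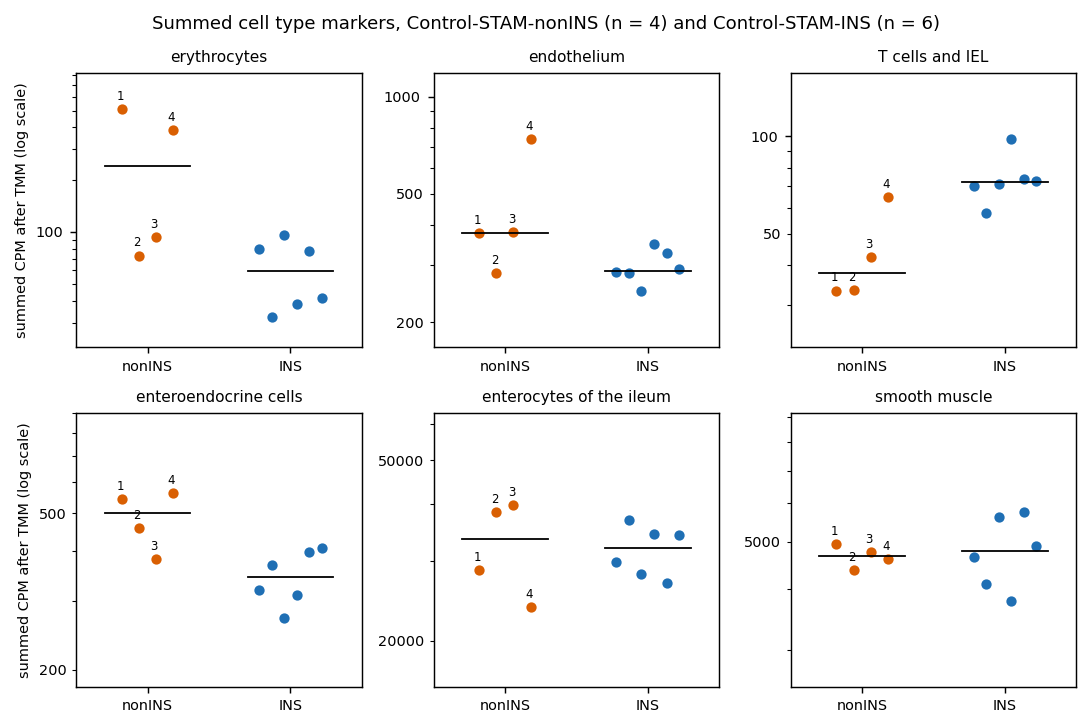
Summed level of 6 marker lists in each library (y axis, CPM after TMM, log scale), for Control-STAM-nonINS (orange, marked with the replicate number) and Control-STAM-INS (blue), with bars at the group medians. Erythrocyte sums are high in replicates 1 and 4 only, at 514 and 386 CPM, the endothelial sum is highest in replicate 4, at 738 CPM, and the ileal enterocyte and smooth muscle sums of the groups overlap.

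Outside the lists, the largest falls included genes that are little described in gut. Rcor2, a corepressor that partners the demethylase LSD1, had 9.38, 5.33, 9.45 and 8.35 CPM in Control-STAM-nonINS and 0.733, 1.07 and 1.44 in Control-STAM-INS. The groups were far apart and tight, and its adjusted p of 6.98e-07 in edgeR was the smallest among the genes named here (log2 fold change -2.89, SE 0.21). Tmie, a membrane protein known from the transduction channel of hair cells, had 6.09, 3.37, 6.26 and 11.7 CPM against 0.419, 0.786 and 1.49 (log2 fold change -3.04, SE 0.43, adjusted p = 0.000389 from edgeR). Both were called in each of the 10 fits that left out a library. Als2cl overlaps Tmie on the opposite strand, and strand was not stated for the counting, so reads of these genes cannot be told apart.

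Among called genes with at least 5 CPM in the higher group and no overlap, the largest rises were led by gasdermins. Gsdmc3 and Gsdmc2, close paralogs of the pore-forming gasdermin C family, had 2.08, 4.31, 1.12 and 0.0437 and 7.84, 11.4, 2.96 and 0.262 CPM without insulin, and 10.7, 15.7 and 28.2 and 26.6, 31.2 and 52.9 with it (log2 fold changes 3.35 and 2.73, adjusted p = 0.00418 and 0.0128 from edgeR). Untreated replicate 4 was almost without either transcript, and all treated libraries were above all untreated ones. The gene listed as ccdc198 shared this low point, with 16.6, 20.8, 12.8 and 1.18 CPM against 36.9, 46.9 and 63.5 (log2 fold change 1.96, adjusted p = 0.0185 from edgeR). A pair of receptors was among the rises. Ltb4r2, a receptor for leukotriene B4 and related lipids, had 1.34, 5.10, 3.08 and 2.01 CPM against 7.14, 9.34 and 15.2, and Gpr17, an orphan receptor related to those for leukotrienes and nucleotides, 3.21, 4.47, 5.31 and 4.33 against 9.79, 13.01 and 20.6. Neither overlapped between the groups (log2 fold changes 1.78 and 1.68, adjusted p = 0.00205 and 0.00571 from edgeR). Gpr17 lies across Lims2 on the opposite strand, so reads of these genes cannot be told apart. The remaining genes among the 10 were the crystallin Crybb3 (2.10), the RNA-binding Mex3b (1.45), the proteoglycan opticin Optc (1.41), and Cd3g and Cd3e.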

How the data were processed

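Total RNA of ileal whole wall was sequenced as directional libraries, 1 per mouse, and the authors deposited raw read counts per gene, mapped to GRCm38 (mm10) with CLC Genomics Workbench. The strand setting and the treatment of reads with several matches are not given in the sources used here. Nothing states that the mice of a group came from separate litters or cages, so p-values measure the spread between these mice. Each sample was placed in its group by its labels. Library totals ran from 13288018 to 22215382 counts in the 10 control libraries.

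Counts were filtered (filterByExpr, minimum count 10, minimum total 15), scaled by TMM and tested with edgeR 4.0.16 in R 4.3.3 (quasi-likelihood test, robust, all 16 libraries in the fit), with Benjamini-Hochberg adjustment over 15267 genes and a threshold of 0.05. Standard errors (SE) were taken as |log2 fold change| over the square root of F. Alternatives were upper-quartile and RLE factors, no filter, the 2 groups alone, a replicate block, alpha-defensins left out of library sizes, each library left out in turn, DESeq2 1.42.0 and an added fold threshold.

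The 55 gene lists and the comparison were chosen with earlier results of these data known, so the counts over lists are descriptions without a test of their own. Genes are named by rule: the 10 largest falls and 10 largest rises among called genes without overlap and with at least 5 CPM in the higher group (alpha-defensins and provisional symbols left out), in each programme list the called members with the 4 smallest p-values (2 members where none was called), in each cell type list the called members with the 2 smallest, the most abundant member of a list, and Insr, Irs2, Pck1, Cpt1a and Txnip. Some genes that the rule takes are not reported here. Other list members are named for their known role, after their values were seen. Gene overlaps come from the GENCODE vM21 annotation, and promoter sequences from RefSeq (GRCm38.p6). Of the genes with the largest changes named here, Acaa1b, Tmie, Gpr17, ccdc198 and Optc overlap annotated genes on the opposite strand. Cd3e overlaps annotated genes on both strands. Reads shared by such genes cannot be told apart.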

Additional observations from a re-analysis of the deposited data

Results flagged for a closer look

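For each gene named in the text and each of the 2 groups, the highest or lowest library was compared with the rest on log2(CPM + 0.5), by the gap to its nearest neighbour as a share of the group's range (Dixon's ratio, with its 95% critical value). Chance puts about 1 in 20 groups past it, which is 16.5 of the 330 tests, and 25 were past it. The level of the library that stood apart is given with the range of the others and the ratio.

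Control-STAM-INS replicate 3 stood apart as low for Acaa2 (61.3 CPM against 86.6 to 102, 0.671), Acaa1b (1.32 CPM against 5.23 to 10.6, 0.633), Ppara (7.19 CPM against 14.997 to 22.9, 0.630), G6pc (1.80 CPM against 18.7 to 28.5, 0.837), Ugt1a1 (91.03 CPM against 125 to 143, 0.701) and Kcnq1 (55.2 CPM against 67.02 to 74.7, 0.642), and as high for Pdia4 (155 CPM against 104 to 119, 0.669), Creld2 (86.7 CPM against 48.05 to 55.6, 0.752) and Sars (110.0 CPM against 89.1 to 93.99, 0.745). Control-STAM-nonINS replicate 4 stood apart as low for Angptl4 (96.5 CPM against 256 to 286, 0.898), Ldhb (13.95 CPM against 17.2 to 17.9, 0.842), Sesn2 (13.9 CPM against 28.2 to 30.03, 0.918), Dnajb11 (83.3 CPM against 116 to 124, 0.848) and Optc (1.97 CPM against 5.36 to 5.88, 0.910), and as high for Pck1 (424 CPM against 312 to 326, 0.854). Control-STAM-nonINS replicate 1 stood apart as low for Cd3g (0.804 CPM against 2.40 to 2.59, 0.929) and Mex3b (1.54 CPM against 2.67 to 2.91, 0.856), and as high for Csnk1e (54.9 CPM against 41.8 to 43.5, 0.857) and Pdha1 (299 CPM against 257 to 261, 0.896). Control-STAM-INS replicate 1 stood apart as low for Selenos (52.7 CPM against 63.2 to 68.7, 0.687), and as high for Btg2 (115 CPM against 102 to 106, 0.672) and Irf1 (252 CPM against 151 to 182, 0.632). Control-STAM-nonINS replicate 2 stood apart as low for Tst (32.5 CPM against 55.01 to 59.01, 0.882), and as high for Syvn1 (79.6 CPM against 58.8 to 61.1, 0.875). Control-STAM-INS replicate 2 stood apart as high for Crybb3 (9.34 CPM against 3.96 to 5.17, 0.696). No cause was tested for any of them, and the tests above use all libraries.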

How the results depend on the processing

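The number of changed genes was 1602 (570 higher, 1032 lower). It was 1526 (669 and 857) with upper-quartile factors, 1585 (605 and 980) with RLE factors, 1325 (445 and 880) with no filter on low counts, 1769 (692 and 1077) with the 2 groups alone and 1603 (572 and 1031) with the alpha-defensins left out of library sizes. DESeq2 gave 2083 (864 and 1219), and a fold change over 1.5 or under 0.67 in addition to the adjusted p left 899 (239 and 660). With each library left out in turn the total ran from 824 (without Control-STAM-nonINS replicate 1) to 1877 (without its replicate 2), the higher genes from 244 to 726 and the lower ones from 580 to 1151. Of the 824 genes, 798 were among the 1602. The cause of these shifts was not tested.

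Replicate numbers are shared between the groups, and the labels give no litter, cage or day for them. Same-numbered libraries deviated from their group means with correlations of -0.0068, -0.024, 0.117 and 0.179 over genes, and 1 of 4 untreated libraries correlated best with its own number, so the numbers were not taken as pairs. The replicate block gave 1397 genes (509 higher, 888 lower), 1174 of them shared with the 1602. Under the block Xbp1, uncalled, turned from 0.14 to -0.014 on the log2 scale. Fabp1, Pdk4 and ccdc198 were called without each library in turn but not under the block.

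Of the 136 called genes named in the text, 75 were called under every alternative. Of all 136, 58 lost their call in edgeR without at least 1 library (53, 8, 36 and 37 without Control-STAM-nonINS replicates 1 to 4, and 16 to 29 without a Control-STAM-INS library), with an adjusted p of up to 0.215: Akt1, Angptl4, Atoh1, Bnip3, Btg2, Ccnd1, Ccne2, Ccr2, Cd3e, Chga, Creld2, Cybrd1, Cyp2j9, Ddit4, Dnajb11, Dnajc3, Edem1, Egr1, Eno1, Fkbp5, Fos, Gcg, Gsta1, Gsta4, Guca2a, Hsd11b1, Hsp90b1, Hspa5, Hyou1, Igf2, Igfbp5, Khk, Klf2, Klf9, Ldhb, Lpin1, Ltc4s, Manf, Mt2, Mx1, Pck1, Pdha1, Pdia4, Pdia6, Ppp1r15a, Rdh7, Ret, Sars, Sesn2, Slc36a1, Slc37a4, Slc38a2, Slc39a5, Slc40a1, Stard4, Tfrc, Trpm5 and Ugt1a1. None of the called genes named in the text changed direction under any alternative. Uncalled genes gained a call in 15 pairs of a gene and an alternative. These genes were Hadha, Hadhb, Cpt1a, Slc2a2, Sgk1, Tsc22d3, Nr1d1 and Sst. Depth limits the rarest transcripts most, as in S100g, which rests on 0 to 66 counts per library.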

Other observations

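Amino acid transport and the nervous and tuft cell lists held a few further called genes. Slc38a1, which takes up glutamine and other neutral amino acids, had 75.5, 61.2, 70.6 and 69.2 CPM in the 4 untreated libraries and 39.6, 46.95 and 50.02 as lowest, median and highest of the treated ones, with no overlap (log2 fold change -0.61, adjusted p = 0.00209 from edgeR). Its relative Slc38a2 was lower too (-0.49), while Slc36a1, a proton-coupled amino acid transporter, was higher (0.36), which made 3 of 20 members (1 without Control-STAM-nonINS replicate 1, 2 without replicate 3 or 4, and 6 without replicate 2). Vip, the vasoactive intestinal peptide of secretomotor neurons, had 42.8, 54.4, 56.8 and 98.1 CPM against 23.5, 28.6 and 38.2, again without overlap (log2 fold change -1.05, adjusted p = 0.00907 from edgeR). The neuronal receptor Ret was higher (0.58) in overlapping groups, and these were the 2 called of 17 enteric neuron and glia genes (Vip alone without Control-STAM-nonINS replicate 1, 3 or 4). Of 10 tuft cell genes, the cation channel Trpm5 was higher (0.59) and the leukotriene C4 synthase Ltc4s lower (-1.07), both in overlapping groups (0 called without Control-STAM-nonINS replicate 4).

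The ieIRKO-STAM-INS libraries, from mice that lack the insulin receptor in gut epithelium and received insulin, share no library with the 2 control groups, and their levels are given only for orientation as lowest, median and highest of 6. Fbp1 stood at 19.1, 34.5 and 52.8 CPM there and Pdk4 at 6.54, 17.9 and 42.6 CPM. Pck1 spread most, with 4.98, 47.97 and 274 CPM. Rcor2 had 1.24, 1.49 and 1.89 CPM and Sdf2l1 37.8, 48.04 and 65.3 CPM. Differences between these mice and the control groups were not tested here.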
